A study of Mus musculus with 6 samples.

Results

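The Hox genes are 39 homeobox genes in mouse, arranged in 4 clusters (HoxA, HoxB, HoxC and HoxD) on separate chromosomes. Genes of one paralog number descend from a common ancestor and keep the same place in each cluster. Within a cluster, genes of low paralog number are switched on earlier and nearer the head, while genes of high number act toward the tail. The posterior paralogs pattern the hindgut, limbs and urogenital tract, and Hoxa13 and Hoxd13 act in the urogenital sinus, from which the bladder arises. Hox proteins bind DNA together with TALE cofactors such as Pbx and Meis proteins, and their genes respond to retinoic acid, Polycomb repressors and trithorax activators.

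The members were all genes whose symbol in the platform annotation is Hox, a cluster letter and a paralog number, on a probe set (the group of short probes that reads one transcript) that lists that symbol alone. They came to 33 of the 39 genes and 48 of 45037 probe sets. The other genes were not analysed here. By cluster, the members were 9 HoxA, 9 HoxB, 7 HoxC and 8 HoxD genes.

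The bladder cells came from male mice of the FVB/N strain, taken at postnatal day 2. The labels give both transgenes for every sample, from crosses of the 2 reporter lines: EGFP under the smooth muscle gamma actin promoter (SMGA, endogenous gene Actg2) and EYFP under the smooth muscle alpha actin promoter (SMAA, endogenous gene Acta2). No sample without the transgenes is among the arrays. Cells sorted as EGFP positive and EYFP negative (single-positive, 3 arrays) were compared with cells positive for both (double-positive, 3 arrays). The labels give the tissue as detrusor, the muscle of the bladder wall. A reporter shows that a promoter fragment was active or had been, so a sorted population can mix cell types. Whether different animals stand behind the 3 arrays of one group is not in the labels, and each p-value therefore rests on a spread between arrays that can be technical.

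Each value is a signal intensity in arbitrary units, and fold changes are double-positive minus single-positive on the scale log2(signal + 25.042), which understates the change of dim genes. Signals of different probe sets cannot be ranked against each other, because probes differ in brightness. Median signal per array was 147.2 to 199.8. Of the 10 smooth muscle markers read, Actg2 among them, 8 were lower in the double-positive arrays and none was higher, past a limma adjusted p of 0.05, the threshold used throughout. Acta2 gave 62346 ± 9277 in single-positive and 59801 ± 11165 in double-positive arrays (SD, n = 3 each), a difference within the spread. Lower values past the threshold were also seen for 12 of 13 tested leukocyte, 8 of 14 urothelium, 5 of 10 endothelium, 4 of 8 nerve and Schwann cell, 1 of 3 mesothelium and 2 of 7 pericyte markers. Of 10 fibroblast and mesenchyme markers, 2 were higher (Foxf1 and Tcf21). In sorted bulk cells, fewer cells of a type and less RNA per cell cannot be told apart.

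Of the 33 measured Hox genes, 17 passed the filter on dim genes and were tested, and none passed the threshold in either direction. Over all 13464 genes tested, 1.98% were called higher and 4.38% lower, and 0 of 17 is close to that background. Without overlap between the groups were 5 of the 17 (29.4%), against 22.4% of all tested genes, and the same 5 had an unadjusted p under 0.05, against 17.6%. Those 5 were Hoxa10 and Hoxa11, with higher values in the double-positive arrays, and Hoxd8, Hoxd9 and Hoxd10, with lower ones. For Hoxa10 this is its brighter probe set, and its other one was lower, also without overlap (-0.93). The median log2 fold change was -0.18 over the tested Hox genes and 0.02 over all tested genes.

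The values differed in sign between clusters. All 4 tested HoxD genes had estimates below 0 (median -1.14), as had all 3 tested HoxC genes (median -0.19). In HoxA 4 of 6 were above 0 (median 0.30), and in HoxB 3 of 4 (median 0.24). Among the posterior paralogs, numbers 9 to 13, all 4 HoxA genes were above 0 (0.20 to 0.86) and all 3 tested HoxD genes below 0 (-0.78 to -2.28). These signs were not all stable: Hoxa10 had -0.93 on its other probe set and -0.04 as the mean of both, Hoxa9 had -0.26 without double-positive array 3, and Hoxd13 had 0.29 without double-positive array 1. In HoxC, Hoxc6 had 0.81 on its other tested probe set, and Hoxc9 had 0.41 without double-positive array 3. Each of the 4 tested HoxB genes also changed sign in at least 1 setting, as Hoxb2 did without single-positive array 1 (-0.76). These are counts of estimates, most of which lie within the spread between arrays, and no difference between clusters was tested.

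**Figure D1:**
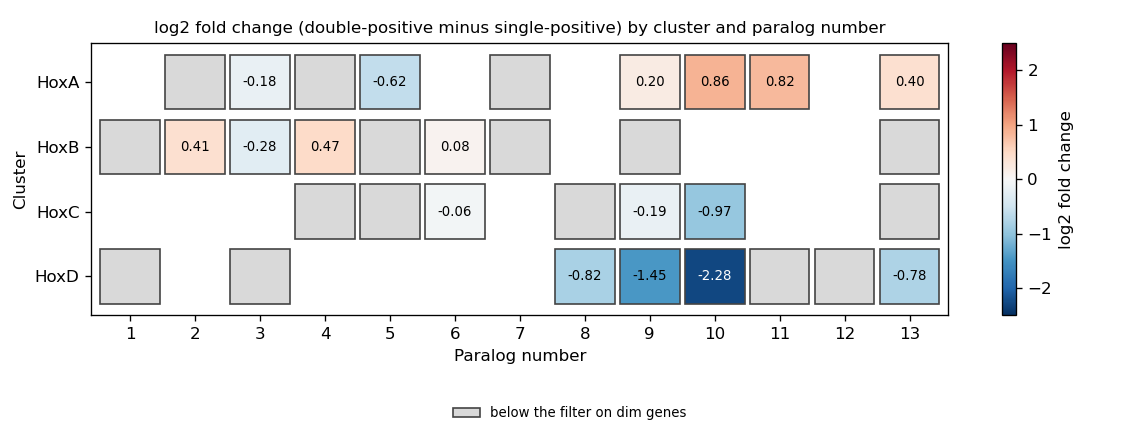
Log2 fold change, double-positive minus single-positive, of each of the 33 members, with the cluster on the vertical and the paralog number on the horizontal axis. Numbers and colours are the 17 tested genes and grey boxes the 16 below the filter, and the HoxD boxes are blue from -0.78 to -2.28 while HoxA 9 to 13 are light red from 0.20 to 0.86.

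The 5 tested genes without overlap (29.4%, against 22.4% of all tested genes) were Hoxa10 beside Hoxa11, and Hoxd8, Hoxd9 and Hoxd10 in a row. That is their order in the RefSeq table, and whether neighbours go together was not tested. On its other probe set Hoxa10 went the opposite way (-0.93). Hoxb9, below the filter, had no overlap either and is not counted. Promoter letters of the 5 genes are shown because they were tested and their groups did not overlap. Each is the 250 bases before a RefSeq start, 5′ to 3′ on the strand of the gene, from assembly GRCm38.p6, and capitals mark CCAAT or its complement ATTGG, the CCAAT box of many promoters. They were chosen after the values were seen. Hoxd8, Hoxd9 and Hoxd10 are on the plus strand of chromosome 2, at chr2:74704365-74704614, chr2:74697513-74697762 and chr2:74691641-74691890.
Hoxd8: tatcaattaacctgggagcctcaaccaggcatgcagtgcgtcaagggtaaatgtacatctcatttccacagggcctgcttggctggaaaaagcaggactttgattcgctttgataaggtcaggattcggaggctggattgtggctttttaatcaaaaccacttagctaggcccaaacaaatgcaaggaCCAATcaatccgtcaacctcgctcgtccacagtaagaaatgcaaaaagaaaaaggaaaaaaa
Hoxd9: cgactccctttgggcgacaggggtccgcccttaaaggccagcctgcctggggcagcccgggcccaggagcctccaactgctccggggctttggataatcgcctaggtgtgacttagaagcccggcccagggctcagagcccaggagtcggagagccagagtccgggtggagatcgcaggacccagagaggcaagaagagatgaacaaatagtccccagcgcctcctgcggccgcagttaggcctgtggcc
Hoxd10: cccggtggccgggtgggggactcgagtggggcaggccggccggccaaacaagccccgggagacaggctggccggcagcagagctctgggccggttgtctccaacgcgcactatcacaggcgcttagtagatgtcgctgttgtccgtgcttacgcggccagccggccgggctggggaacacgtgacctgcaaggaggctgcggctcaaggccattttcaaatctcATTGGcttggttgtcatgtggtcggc

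Hoxa11 and Hoxa10 are on the minus strand of chromosome 6. Hoxa11 has 1 listed start, with the window chr6:52245811-52246060. Hoxa10 has 2 listed starts, a downstream one (chr6:52234940-52235189) and an upstream one (chr6:52240855-52241104), and both windows are shown.
Hoxa11: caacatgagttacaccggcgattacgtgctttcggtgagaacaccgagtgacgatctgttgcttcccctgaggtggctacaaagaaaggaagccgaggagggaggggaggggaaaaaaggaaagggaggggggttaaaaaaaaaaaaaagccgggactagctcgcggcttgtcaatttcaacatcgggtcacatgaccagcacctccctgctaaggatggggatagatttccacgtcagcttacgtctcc
Hoxa10, downstream start: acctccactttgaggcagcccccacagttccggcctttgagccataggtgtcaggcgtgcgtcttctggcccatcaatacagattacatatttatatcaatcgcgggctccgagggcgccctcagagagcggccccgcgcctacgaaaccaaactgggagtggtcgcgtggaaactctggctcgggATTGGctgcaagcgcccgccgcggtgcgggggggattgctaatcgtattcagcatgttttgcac
Hoxa10, upstream start: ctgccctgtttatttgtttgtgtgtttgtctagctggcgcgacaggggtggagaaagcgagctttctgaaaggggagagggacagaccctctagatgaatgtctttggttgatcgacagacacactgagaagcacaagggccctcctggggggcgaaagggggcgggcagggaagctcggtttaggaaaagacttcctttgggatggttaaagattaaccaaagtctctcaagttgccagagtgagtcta

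A CCAAT box on either strand stood once each before Hoxd8, Hoxd10 and the downstream Hoxa10 start, and in none of the windows of Hoxd9, Hoxa11 and the upstream Hoxa10 start. It was present in 14 of 24 Hox windows (22 genes), and in 33.8% of all 32851 windows of that length. AGGTCA, the half-site of retinoid receptors, stood before Hoxd8 and Hoxd10, in 6 of the 24 Hox windows and in 14% of all windows. GGGCGG stood before Hoxd9 and the upstream Hoxa10 start (10 of 24 Hox windows, 32.7% of all). TATAAA stood before the downstream Hoxa10 start alone of these 6 (4 of 24 Hox windows, 12.4% of all). TGATNNAT, the composite Hox and Pbx site, was in none of the 6, in 4 of 24 Hox windows and in 7.68% of all windows. The 3 HoxD windows did not share a searched motif, and their GC share was 44.4%, 65.2% and 65.6%. The median was 58.6% over the Hox windows and 52.4% over all windows. A match of letters is a description and shows no binding.

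**Figure D2:**
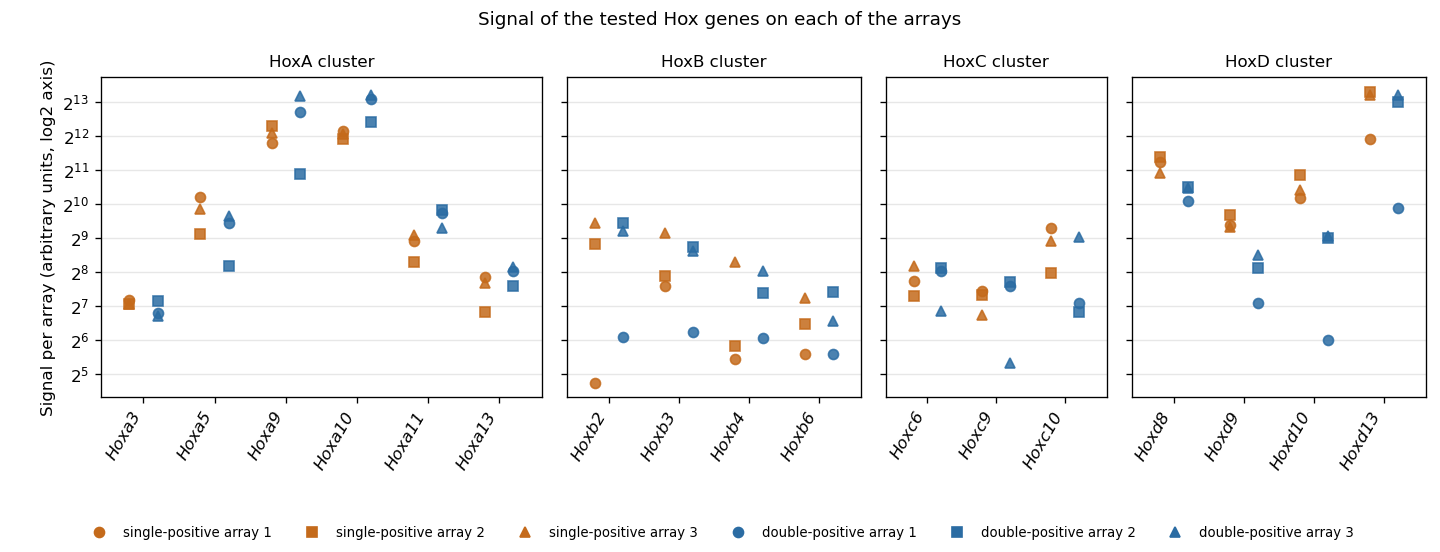
Signal of the 17 tested Hox genes on each array, on a log2 axis in arbitrary units, by cluster. Orange marks are single-positive and blue marks double-positive arrays, with circles, squares and triangles for arrays 1, 2 and 3. All 3 blue marks lie below all 3 orange marks for Hoxd8, Hoxd9 and Hoxd10 and above them for Hoxa11 and for the brighter probe set of Hoxa10.

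HoxD carried the widest differences. Hoxd10, a posterior factor of hindlimb and lumbar patterning, read 1145, 1861 and 1352 in the single-positive arrays and 63.6, 512 and 529.7 in the double-positive arrays. The highest double-positive value was below the lowest single-positive one, and array 1 was far below the other two of its group. The mean was 3.94-fold lower in double-positive cells (369 ± 264 against 1453 ± 368, SD, n = 3 each), and the log2 fold change came to -2.28 (SE 0.64, 95% interval -3.71 to -0.85, limma adjusted p = 0.0701). Without double-positive array 1 it was -1.41 (adjusted p = 0.0772). Without double-positive array 3 it was -2.73 and passed (adjusted p = 0.0393). Leaving out a single-positive array gave a larger adjusted p than the full fit, from 0.122 to 0.239.

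Hoxd9, the next gene in the cluster, read 659.7, 818 and 644 in single-positive and 136, 275 and 362 in double-positive arrays. The groups were well apart, with means of 707 ± 96.2 and 258 ± 114 (SD, n = 3 each). The log2 fold change came to -1.45 (SE 0.41, 95% interval -2.38 to -0.53, limma adjusted p = 0.0726). It passed without double-positive array 3, the highest of its group (-1.73, adjusted p = 0.0398). Leaving out any other array gave a larger adjusted p than the full fit, from 0.114 to 0.239. Without double-positive array 1 the value was -1.10.

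Hoxd8, a central paralog, was read by a pair of tested probe sets. The brighter gave 2423, 2657 and 1931 in single-positive and 1074, 1448 and 1422 in double-positive arrays, a log2 fold change of -0.82 (SE 0.28, 95% interval -1.45 to -0.18, limma adjusted p = 0.149). The other, whose suffix marks probes that several transcripts share, gave 2983, 2802 and 1503 against 884, 761 and 1337, a log2 fold change of -1.25 (SE 0.37, adjusted p = 0.131 over all probe sets). The groups did not overlap on either of them. Both thus pointed the same way, and neither passed.

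Hoxd13, at the end of the cluster, acts in the urogenital sinus, as named above. It read 3838, 10044 and 9441 in single-positive and 934, 8117 and 9349 in double-positive arrays. Array 1 was the lowest of each group. Over all arrays the groups overlapped. The log2 fold change of -0.78 (SE 0.75, adjusted p = 0.692) turned to 0.29 without double-positive array 1. A second Hoxd13 probe set, below the filter, read 23, 39.3 and 24.2 against 10.4, 66.5 and 7.91. The mean of both probe sets gave -0.47. Between Hoxd10 and Hoxd13, Hoxd11 and Hoxd12 were below the filter with no array above 102, and so were Hoxd1 and Hoxd3 at the other end.

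In HoxA no gene passed, and the groups did not overlap for Hoxa10 and Hoxa11. Hoxa10, known for its part in uterine and hindlimb patterning, read 4538, 3817 and 4221 in single-positive and 8638, 5418 and 9388 in double-positive arrays. Every double-positive array was above every single-positive one, and array 2 was the lowest of each group. The mean was 1.86-fold higher, with a log2 fold change of 0.86 (SE 0.25, 95% interval 0.30 to 1.42, limma adjusted p = 0.0825). It passed without double-positive array 2 (1.10, adjusted p = 0.0224). Without any other array the adjusted p was larger than in the full fit, from 0.147 to 0.255.

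A second Hoxa10 probe set went the other way. It read 260.2, 131 and 250.0 in single-positive and 130.0, 62.4 and 104 in double-positive arrays, again without overlap, for a log2 fold change of -0.93 (SE 0.45, adjusted p = 0.426 over all probe sets). The mean of both probe sets was therefore near 0 (-0.04). The direction of Hoxa10 depends on which probe set stands for it. By their suffixes, the dimmer is a probe set of 1 transcript and the brighter is not. The files do not say which transcript each one reads.

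Hoxa11, a partner of Hoxa10 in the urogenital tract, read 482, 311 and 542 in single-positive and 849, 906 and 630.4 in double-positive arrays. The lowest double-positive value lay just above the highest single-positive one. Its log2 fold change was 0.82 (SE 0.36, 95% interval 0.02 to 1.63, adjusted p = 0.274). Hoxa13, the most posterior HoxA gene, read 232, 113 and 204 against 258, 191 and 283, which overlapped, with a log2 fold change of 0.40 (SE 0.41). Hoxa9 read 3506, 5052 and 4347 against 6599, 1900 and 9305. Its double-positive arrays spread widely around the single-positive ones, and the log2 fold change of 0.20 (SE 0.49) became -0.26 without double-positive array 3 and -0.01 without double-positive array 1. On a dimmer Hoxa9 probe set all double-positive arrays were higher (317, 389.9 and 261 against 206, 213 and 256), by 0.46 on the log2 scale (SE 0.38, adjusted p = 0.707).

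Of the more anterior HoxA genes, Hoxa5, a central paralog that acts in lung development, had lower values in double-positive arrays by both of its tested probe sets. The brighter, whose suffix marks cross-hybridising probes, read 1183, 556 and 929 against 694, 288 and 802. The log2 fold changes were -0.62 (SE 0.47) and -0.57 (SE 0.49). The groups overlapped on both, and the value of the brighter ran from -0.18 without double-positive array 2 to -0.91 without single-positive array 2. Hoxa3 had -0.18 (SE 0.39) and -0.16 (SE 0.48) on its tested probe sets, with overlap. Hoxa2, Hoxa4 and Hoxa7 were below the filter.

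**Figure D3:**
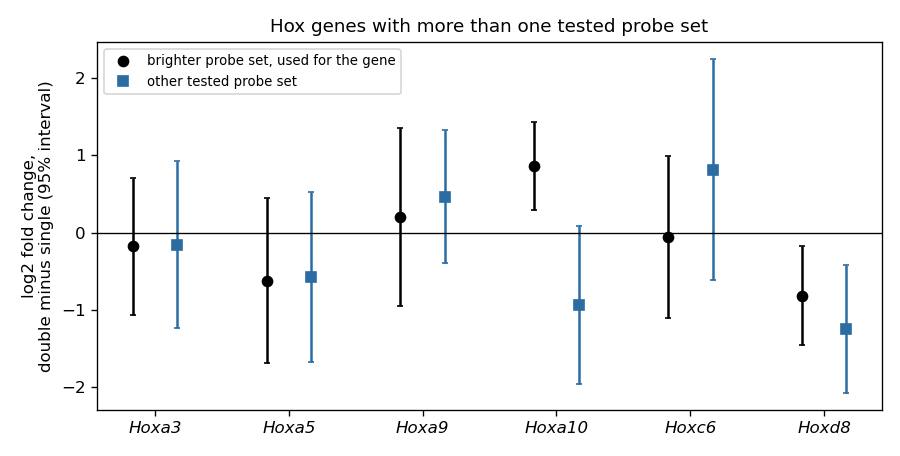
Log2 fold change, double-positive minus single-positive, with 95% intervals, on each tested probe set of the 6 Hox genes that had more than 1. Black circles are the brighter probe set, used for the gene, and blue squares the other. Hoxa10 has one at 0.86 and one at -0.93, and both Hoxd8 points lie below 0.

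Over probe sets in place of genes, 23 of the 48 Hox probe sets were tested, from the same 17 genes, and none passed, where 1.01% of all 27022 tested probe sets were higher and 2.42% lower. The smallest adjusted p was 0.13. Of the 23, 8 had no overlap between groups (34.8%, against 18.7% of all). These include both Hoxd8 probe sets and both of Hoxa10, which had opposite signs, so some genes count more than once. Over genes the share was 29.4%, against 22.4% of all. In 4 of the 6 genes with 2 tested probe sets the signs were the same, and in Hoxa10 and Hoxc6 they were opposite. For Hoxc6 they were -0.06 (SE 0.46) on a probe set whose suffix marks cross-hybridising probes and 0.81 (SE 0.63) on another, both with overlap. Hox paralogs are alike in the homeobox, so a probe set with such a suffix may read more than 1 of them, which was not tested.

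HoxB values varied more within the groups than between them. Hoxb2, an anterior gene of hindbrain identity, read 26.6, 453 and 694 in single-positive and 68.4, 694 and 588 in double-positive arrays. Array 1 was low in both groups, and the log2 fold change of 0.41 (SE 1.01, 95% interval -1.84 to 2.65) became -0.76 without single-positive array 1, and was also below 0 without double-positive array 2 or 3 (-0.12 and -0.01). Hoxb4, which also acts in blood stem cells, read 43, 56 and 313 against 67.1, 165 and 259 (log2 fold change 0.47, SE 0.67, and 0.04 without single-positive array 1). Hoxb3 and Hoxb6 had -0.28 (SE 0.63) and 0.08 (SE 0.52), and all 4 HoxB genes overlapped. Hoxb1, Hoxb5, Hoxb7, Hoxb9 and Hoxb13 were below the filter.

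In HoxC, Hoxc10, the paralog of Hoxa10 and Hoxd10, read 631, 249 and 483 in single-positive and 135, 114 and 517 in double-positive arrays. Only the first and the second double-positive arrays were low, so the groups overlapped, and the log2 fold change was -0.97 (SE 0.57, 95% interval -2.25 to 0.30, adjusted p = 0.453). It was -1.59 without double-positive array 3 (adjusted p = 0.0902) and -0.61 without double-positive array 2. Hoxc9 read 173, 158 and 107 against 193, 206 and 39.9, with -0.19 (SE 0.54), and without double-positive array 3 it had 0.41. Hoxc4, Hoxc5, Hoxc8 and Hoxc13 were below the filter.

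Read by paralog number, group 10 was the only one with all its genes tested, in 3 clusters. Its values were 0.86 for Hoxa10, -0.97 for Hoxc10 and -2.28 for Hoxd10. Group 9 had 0.20, -0.19 and -1.45 in the same clusters, with Hoxb9 below the filter. Group 13 had 0.40 for Hoxa13 and -0.78 for Hoxd13, with Hoxb13 and Hoxc13 below the filter. These values take the brighter probe set of each gene over all arrays. On its other probe set Hoxa10 had -0.93, and without double-positive array 3 Hoxa9 had -0.26 and Hoxc9 0.41, so the order of the clusters within these groups is not settled.

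**Figure D4:**
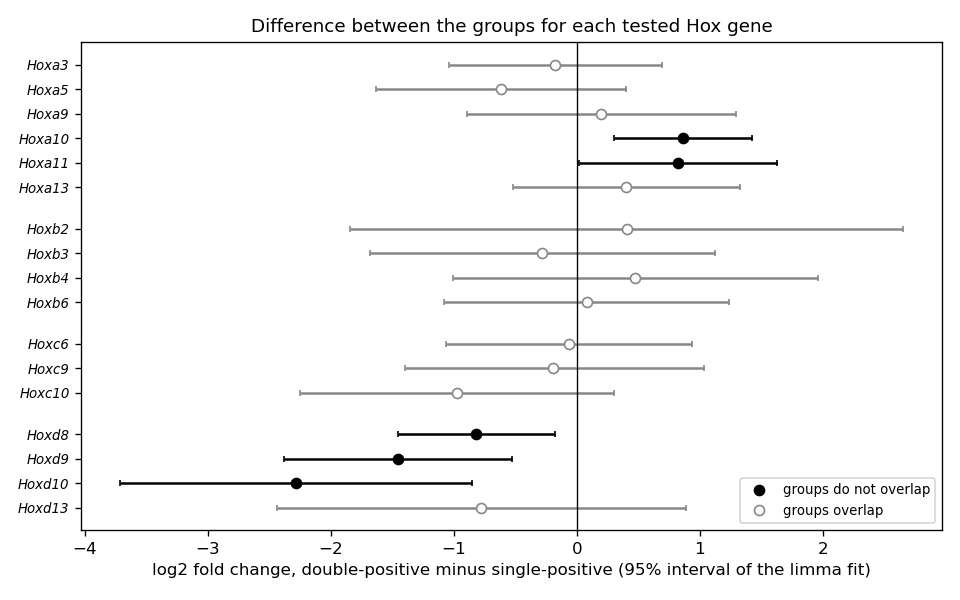
Log2 fold change, double-positive minus single-positive, of the 17 tested Hox genes with the 95% interval of the fit, by cluster. Filled points are the 5 genes whose groups did not overlap, and their intervals, which are not adjusted for the number of genes, do not reach 0. Hoxb2 has the widest interval, from -1.84 to 2.65.

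The 16 genes below the filter had no array above 287, the value of Hoxb1 on single-positive array 2 (its other single-positive arrays read 32.5 and 24.9). Their untested log2 differences ran from -1.34 to 0.47. The first belongs to Hoxb9, which read 115, 101 and 220.2 in single-positive and 38.8, 86.7 and 12.3 in double-positive arrays, without overlap. Hoxc13 stayed under the offset of 25.042 on all arrays, the only one of the 16 to do so. These genes were left untested by the filter, which shows neither that they are silent nor that they do not differ.

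**Figure D5:**
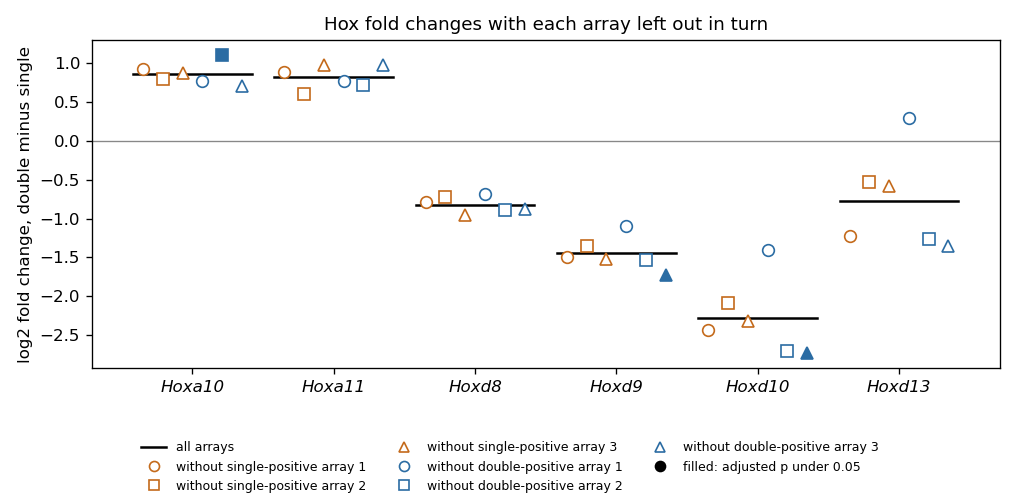
Log2 fold change, double-positive minus single-positive, of 6 posterior and central Hox genes with each array left out in turn. Black lines are the values with all arrays, orange marks leave out a single-positive and blue marks a double-positive array, and filled marks have an adjusted p under 0.05. Hoxa10 passes without double-positive array 2, Hoxd9 and Hoxd10 pass without double-positive array 3, and Hoxd13 crosses 0 without double-positive array 1. No other mark is filled.

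Several Hox genes followed the array number in both groups. Array 1 was the lowest of each group for 6 of the 17 tested genes (Hoxb2, Hoxb3, Hoxb4, Hoxb6, Hoxd10 and Hoxd13), where 11.7% of all tested genes showed this. These 6 include all 4 tested HoxB genes. Array 2 was the lowest of each group for Hoxa5, Hoxa10, Hoxa13 and Hoxc10 (11.8% of all), and array 3 for Hoxc9 alone (12.7%). The Actb control probes gave a 3′ over 5′ signal ratio, a sign of RNA or amplification quality, of 5.97 and 4.66 on the 2 arrays numbered 1, within the range of 2.78 to 8.02 over all arrays. The Gapdh control ratios were larger, from 11.77 to 23.87. Double-positive array 3 had the highest ratio on both controls (8.02 and 23.87).

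Noncoding genes inside the clusters gave no call among 3 tested. Hoxd3os1, an antisense transcript of the HoxD cluster, read 789.9, 343 and 1752 in single-positive and 7.74, 49.2 and 719 in double-positive arrays. A single double-positive array overlapped the single-positive range, and the log2 fold change was -2.73 (SE 1.00, adjusted p = 0.173). Hoxb5os read 203, 872 and 1270 against 173, 2651 and 1613, with array 1 low in both groups (log2 fold change 0.57, SE 0.92). Hoxa11os, antisense to Hoxa11, had 0.07 (SE 0.44).

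Genes that flank the clusters were read next. Evx1, a homeobox gene beside Hoxa13, read 325, 483 and 479.7 in single-positive and 899, 772 and 1226 in double-positive arrays. The groups did not overlap, and the log2 fold change was 1.12 (SE 0.35, adjusted p = 0.107). Snx10, a sorting nexin gene of the HoxA flanks, read 1344, 657 and 697 against 391, 378 and 117, lower without overlap (-1.61, SE 0.50, adjusted p = 0.101). Skap2, an adaptor protein gene beyond the other end of HoxA, was the only one of 18 tested flanking entries to pass, and it fell from 4420 ± 249.9 to 1130 ± 831 (SD, n = 3 each; log2 fold change -2.26, SE 0.52, limma adjusted p = 0.0272). Skap2 acts in leukocytes, and the summed signal of the 14 leukocyte markers was 92241 to 130770 in single-positive and 12725 to 20499 in double-positive arrays, the part of which in this fall was not tested. Evx2 and Lnpk, beside Hoxd13, had -0.25 (SE 0.43) and 0.17 (SE 0.38), with overlap between the groups.

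Of the TALE cofactors none of 7 tested passed. Meis2 read 19977, 19323 and 19451 in single-positive and 12343, 12831 and 17784 in double-positive arrays, lower without overlap (log2 fold change -0.47, SE 0.18, adjusted p = 0.197), and Meis1 had -0.31 (SE 0.18) and Pknox2 0.53 (SE 0.31). None of 26 tested Polycomb genes and none of 16 trithorax and opposing enzymes passed, with medians of -0.04 and 0.17. The lowest p among them belonged to Phc2 (0.67, SE 0.20, adjusted p = 0.0852) and Mllt3 (1.07, SE 0.38, adjusted p = 0.156). Jarid2, a cofactor of the Polycomb methylase, had -0.82 (SE 0.38), and the methylase gene Ezh2 had 0.07 (SE 0.27).

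In the retinoid list, 2 of 14 tested genes rose, 1 fell and 11 did not pass. Aldh1a2, which makes retinoic acid, read 753, 1522 and 1742 in single-positive and 8915, 8602 and 6996 in double-positive arrays. The groups were far apart, by 2.66 on the log2 scale (SE 0.33, limma adjusted p = 0.00119). Aldh1a1 rose (1.76, SE 0.42, adjusted p = 0.0350) and Aldh1a3 fell (-2.07, SE 0.34, adjusted p = 0.00559), and both encode enzymes of the same step. Cyp26b1, which breaks retinoic acid down, read 736, 696 and 645 against 8.57, 41.7 and 390.3, without overlap (-2.87, SE 0.77, adjusted p = 0.0558).

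The Hox values stood beside differences in marker signal between the groups. The summed signal of the 10 smooth muscle markers was 241285 to 311039 in single-positive and 76855 to 112022 in double-positive arrays. For the 14 urothelium markers it was 26759 to 44549 and 5233 to 8818. The sums of the 10 fibroblast and mesenchyme markers overlapped, at 325274 to 384808 and 338975 to 473516. Endothelium markers summed to 33131 to 42974 and 5925 to 9225, the 9 measured nerve and Schwann cell markers to 11979 to 15749 and 1386 to 2900, and pericyte markers to 57323 to 62167 and 26498 to 47077. Mesothelium markers also overlapped, at 2268 to 3096 and 794 to 3184. The urothelium marker Krt15 was the only marker under the offset on all double-positive arrays, and none was so on all single-positive arrays. The part of these markers' cells in the lower HoxD values was not tested.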

How the data were processed

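RNA was extracted from sorted cells, amplified in 2 rounds and hybridised to 1 Affymetrix array per sample, per the labels' protocols. The deposited values are linear signal intensity per probe set, made by the authors with GCOS per the submitters' processing notes. Its version and settings: not given in the sources used here. Every array had a mean of 1500.01 once 2% was trimmed from each tail, so differences in total RNA cannot be seen. Amplification in 2 rounds favours the 3′ ends of transcripts.

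Of 45037 probe sets that are not controls, 34945 had 1 gene symbol in the platform annotation, 932 several and 9160 none listed. Those with several, including 3 of Hox genes, were not named. RefSeq held the Entrez identifier of 34741 of those with 1 symbol. Values became log2(signal + 25.042), where 25.042 is the 20th percentile of signal. Each gene took its probe set of highest mean, and genes with a mean above the 40th percentile (6.82) were tested, 13464 of 18193. The comparison used limma 3.58.1 under R 4.3.3 (lmFit, then eBayes with trend and two-sided p), and Benjamini-Hochberg adjustment ran over all tested genes or probe sets. In simulated data of 13464 genes, the procedure recovered 6% of 2-fold and 60% of 4-fold changes, with 4 false among 70 calls. The simulation changed fewer genes than were called in the real data, and the adjustment depends on that number. These shares therefore need not hold for the real data.

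Members, lists and tests were chosen with earlier results of these data known. The rule for named genes took Hox genes past the threshold, the 2 of largest change in each cluster, and list members past the threshold (the 3 of smallest p where over 5 passed). All other names were chosen after their values were seen. Across probe sets, deviations of same-numbered arrays from their group means correlated at 0.09, 0.03 and -0.07. Such values show no pairing over the probe sets as a whole, and they cannot exclude it for single genes. With the replicate block, the SE fell for Hoxd10 (0.64 to 0.49) and Hoxb2 (1.01 to 0.44). It rose for Hoxd8 (0.28 to 0.32) and Hoxa3 (0.39 to 0.46). Whether the arrays pair for the Hox genes was not tested. Promoter windows and gene order came from RefSeq tables of GRCm38.p6.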

Additional observations from a re-analysis of the deposited data

How the results depend on the processing

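The number of Hox genes called depended on the settings for 3 genes. With array weights, 1 was higher (Hoxa10) and 2 lower (Hoxd9 and Hoxd10), the counts over Hox probe sets were also 1 and 2, and 1345 genes were called in all against 857. The weights were 1.96 for double-positive array 1 and 0.57 and 0.52 for double-positive arrays 2 and 3. Hoxd10 was the 1 gene called lower with the offset at the 40th percentile (-1.96), with the filter at the 60th percentile and with the replicate block (-2.28, adjusted p = 0.0176). The block called 1014 genes in all. With 1 array left out in turn, 0 to 1 Hox genes and 0 to 1 Hox probe sets were higher, 0 to 2 Hox genes lower, and 474 to 1077 genes were called in all. No Hox probe set was lower in these settings. The log2 fold changes of Hoxa11, Hoxd8, Hoxd9 and Hoxd10 kept their sign in every setting in which they were tested. So did those of Hoxa3, Hoxa5, Hoxa13 and Hoxc10, whose groups overlapped.

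Signs turned in at least 1 setting for 9 genes. With array weights Hoxb2 had -0.63, Hoxb4 -0.09, Hoxb6 -0.31, Hoxc6 0.07 and Hoxc9 0.12. Hoxc6 had 0.01 after quantile normalization, 0.25 as the mean of its probe sets and 0.81 on probe sets of 1 transcript, where Hoxa10 had -0.93. The mean of its probe sets gave -0.04 for Hoxa10. With 1 array left out, the range was -0.26 to 0.88 for Hoxa9, -0.76 to 1.35 for Hoxb2, -0.66 to 0.42 for Hoxb3, -0.28 to 0.43 for Hoxb6, -0.25 to 0.30 for Hoxc6, -0.51 to 0.41 for Hoxc9 and -1.36 to 0.29 for Hoxd13. The cause was not tested. Of 277 values over 17 settings, 254 kept their sign and 23 did not. The 3 arrays per group and the low signal of 16 genes limit what could be called.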
